A study of Mus musculus with 26 samples.

Results

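The effect of losing the PP2A subunit B55α in heart muscle was examined in the left ventricles of 13 female mice, out of 26 mice of both sexes in the study. The 7 knockout females (cKO, genotype aMHC-CreTg/0-Ppp2r2aL/L) were compared with 6 control females (Ctrl, genotype aMHC-Cre0/0-Ppp2r2aL/L), grouped as labelled by genotype and sex. All 13 carried loxP-flanked alleles of Ppp2r2a, were 12 to 16 weeks old, and had received saline from an osmotic minipump for 2 weeks. The strain is given as C57BL/6N, while the study's design describes a mixed background, with floxed mice from C57BL6/N and Cre mice from FVB. Cre was driven by the αMHC promoter, which is active in cardiomyocytes, so the other cells of the ventricle keep the gene. The controls lack Cre, and no group with Cre and without floxed alleles was compared, so loss of Ppp2r2a cannot be told apart from the presence of Cre or from FVB sequence carried with it. The labels number the samples within each group as replicates.

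PP2A is a serine/threonine phosphatase built from a scaffold subunit (A), a catalytic subunit (C) and one of several regulatory subunits (B), which choose the substrates. B55α, the product of Ppp2r2a, is one of the 4 B55 subunits, together with those of Ppp2r2b, Ppp2r2c and Ppp2r2d. PP2A with B55 subunits is known for dephosphorylating substrates of cyclin-dependent kinases. On entry into mitosis it is inhibited by Ensa and Arpp19, once the kinase Mastl has phosphorylated them, and at mitotic exit that inhibition is relieved. In heart muscle, B55α has been linked to the class IIa histone deacetylase HDAC5, a repressor of MEF2-driven transcription.

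Total counts per library, in units of 1e+06, were 18.7 to 25.6 in Ctrl females and 14.4 to 21.6 in cKO females, and the difference did not pass an exact two-sided permutation test (adjusted p = 0.308 over 4 measures of library quality, the lowest of the 4). Cardiomyocyte markers, as the ventricular label calls for, were abundant, with a summed level of 83703 to 97812 CPM (counts per 1e+06 scaled counts) in Ctrl and 78764 to 92313 CPM in cKO females, and 3 of the 8 atrial markers (Myl7, Sln and Bmp10) were under 1 CPM. The other 5 were detected, and the summed atrial markers, mostly Nppa at 177 to 854 CPM, were at 250 to 560 CPM in Ctrl and 401 to 934 CPM in cKO females. The mice numbered 2 in both groups stood apart from the rest. Their scores on the first principal component (18.7% of the variance) were 35.2 in Ctrl and 35.1 in cKO, against -20.1 to 12.1 in the other 11 females. Both exceeded all 11 other females in 1103 of 15357 genes and lay below all of them in 1027. The mice numbered 1 and 7 of the cKO group were apart in another way, with low levels of mitochondrially encoded transcripts. Where a result below is named as resting on any of these mice, it is given with and without them.

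Ppp2r2a itself was lower in every cKO female. Its level in Ctrl females ran from 36.2 CPM at the lowest through a median of 40.2 CPM to 46.6 CPM at the highest. In cKO females it ran from 9.95 CPM through a median of 13.7 CPM to 16.2 CPM, so the groups were far apart, and the mean of 13.4 ± 2.07 CPM (SD, n = 7) was 33.3% of the Ctrl mean of 40.3 ± 3.59 CPM (SD, n = 6). The difference in mean log2 CPM was -1.59 (p = 0.000583, exact two-sided permutation test over 1716 splits, the smallest p these group sizes allow). In the fit across all genes the log2 fold change was -1.58 (SE 0.14, 95% interval -1.87 to -1.30, adjusted p = 1.9e-07, edgeR), and it was -1.57 without the mice numbered 2 (adjusted p = 1.06e-05). Counts are per whole gene in bulk tissue, so the remaining level can sum transcripts from several sources. These are non-cardiomyocytes, any cardiomyocyte alleles left undeleted, and any transcripts that deleted alleles still give, and their shares were not tested. For this gene as for every other, fewer cells of a type and less RNA per cell cannot be told apart.

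The rest of the PP2A system gave no other call. Of 32 listed subunits and regulators 28 could be tested, and Ppp2r2a was the 1 gene of these at an adjusted p under 0.05, against 0.0326% of all genes tested. Among the B55 subunits, Ppp2r2d ran from 34.0 to 40.7 CPM (median 38.1 CPM) in Ctrl and from 32.1 to 41.3 CPM (median 33.7 CPM) in cKO females. The ranges overlap, with 4 of the 7 cKO females below the Ctrl range and 1 above it, and the log2 fold change of Ppp2r2d was -0.09 with a 95% interval of -0.21 to 0.03 (adjusted p = 0.962). Ppp2r2b (0 to 3 counts per female) and Ppp2r2c (0 to 7 counts) were too low to be tested.

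The catalytic and scaffold subunits gave no call, with narrow intervals for all but Ppp2r1b. The catalytic gene Ppp2ca had a log2 fold change of -0.06 (95% interval -0.15 to 0.03) and Ppp2cb of 0.06 (-0.05 to 0.16). The scaffold gene Ppp2r1a had a value of -0.08 (-0.16 to 0.01) and Ppp2r1b of -0.13 (-0.39 to 0.12). Of the B56 regulatory subunits, Ppp2r5a had the smallest p, with 104 to 126 CPM in Ctrl and 97.2 to 112 CPM in cKO females (log2 fold change -0.14, adjusted p = 0.825). The inhibitors of PP2A-B55 likewise gave no call, at -0.08 for Ensa, -0.06 for Arpp19 and -0.27 for the kinase Mastl, which was under 1 CPM in every female. Over the 28 genes the median was -0.06 and 24 were negative, where 48.9% of all genes tested were negative and their median was 0.00.

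Beyond Ppp2r2a, 4 genes of 15357 differed between cKO and Ctrl females at an adjusted p under 0.05, and all 4 were higher in cKO. They were Gm3716, Ndnf, Eya1 and Gm6517. Higher calls were 0.026% and lower calls 0.00651% of the genes tested, 0.0326% together. Before adjustment, 791 genes (5.15%) had a p under 0.05. Leaving out the mice numbered 2 gave 6 calls of 15460 genes (0.0388%), the same 5 and Efhd1. Without the cKO mice numbered 1 and 7 there were 2 calls, Ppp2r2a and Gm3716, since Ndnf (adjusted p = 0.12), Eya1 (0.0519) and Gm6517 (0.12) then missed the threshold at log2 fold changes of 0.79, 1.07 and 1.17. With females alone in the model Ppp2r2a was the 1 call, with Ndnf at an adjusted p of 0.307, Eya1 at 0.437 and Gm6517 at 0.40, and Gm3716 then fell below the count filter. When 1 female was left out at a time, Eya1 lost its call in 8 and Gm6517 in 10 of 13 fits, and Ndnf in none.

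Gm3716, annotated as a long intergenic noncoding RNA on chromosome 5, was close to absent in controls. Ctrl females had 2, 0, 0, 2, 2 and 0 counts in order of replicate number, and cKO females had 11, 4, 19, 8, 29, 19 and 19. The lowest cKO count was thus above the highest Ctrl count, and the mean cKO level was 0.808 ± 0.379 CPM (SD, n = 7), at least 5.55-fold higher than the level that 3 counts per library would give in controls (adjusted p = 5.18e-05). Males had the same pattern, at 0.039 ± 0.0431 CPM in Ctrl (SD, n = 6) and 0.95 ± 0.122 CPM in cKO (SD, n = 7; adjusted p = 2.63e-06). Gm3716 passed the count filter only through the cKO mice of both sexes, where it was high, so these adjusted p-values are not separate support. The sequence before its annotated start is shown because this gene had the largest relative difference between the groups. It spans 250 bases, chr5:64610700-64610949 on the minus strand of GRCm38.p6 (RefSeq), with capitals marking the 2 matches to the E-box pattern CANNTG, searched on both strands, which read the same.
Gm3716 upstream window: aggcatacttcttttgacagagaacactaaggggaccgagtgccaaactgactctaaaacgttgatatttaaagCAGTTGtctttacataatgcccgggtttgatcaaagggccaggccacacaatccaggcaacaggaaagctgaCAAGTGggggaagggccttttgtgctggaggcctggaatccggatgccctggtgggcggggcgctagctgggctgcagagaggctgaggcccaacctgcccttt
At least 1 CANNTG match is found in 66.2% of 32851 RefSeq windows of this length, so the matches describe the window and do not set it apart. Its GC content was 54.0%, where the median window had 52.4%.

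Ndnf encodes a secreted neuron-derived neurotrophic factor with fibronectin type III domains. It ran from 3.10 through a median of 5.38 to 7.18 CPM in Ctrl and from 8.16 through 9.56 to 11.8 CPM in cKO females, with no overlap between the groups. The log2 fold change was 0.89 (SE 0.15, adjusted p = 0.0079), and 0.90 without the mice numbered 2 (adjusted p = 0.0272). In males it was 0.55 (SE 0.14, adjusted p = 0.07), which missed the threshold, and the difference between the sexes was 0.34 (SE 0.20, adjusted p = 0.999).

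Eya1 encodes a phosphatase and transcriptional coactivator that works with sine oculis homeoproteins. It was at 1.16 to 2.34 CPM in Ctrl (median 1.84 CPM) and 2.31 to 5.04 CPM in cKO females (median 3.71 CPM). The cKO mouse numbered 1, at 2.31 CPM, fell just inside the Ctrl range, and the other 6 were above it. The log2 fold change was 1.04 (SE 0.19, adjusted p = 0.0396), and 1.12 without the mice numbered 2 (adjusted p = 0.0442). The male value was 0.68 (SE 0.18, adjusted p = 0.0726). Eya1 was the 1 call among 9 tested genes of the EYA and DACH families and their homeobox partners, against 0.0326% of all genes tested. The list was chosen with earlier results of these data known, so this count is no separate support for a response of these families. The median of the 9 was 0.06, and Six2, a low gene at 0.146 to 0.541 CPM in Ctrl and 0.280 to 0.786 CPM in cKO females, had the next smallest p (log2 fold change 0.63, adjusted p = 0.948).

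Gm6517, on chromosome 5, is annotated as a processed pseudogene, so its reads cannot be told apart with certainty from those of its parent gene. It had 0.443 to 0.796 CPM in Ctrl (median 0.594 CPM) and 0.839 to 1.76 CPM in cKO females (median 1.48 CPM). The groups did not overlap, and the log2 fold change was 1.17 (SE 0.22, adjusted p = 0.0396), or 1.31 without the mice numbered 2 (adjusted p = 0.0272). In males the value went the other way, at -0.29 (SE 0.21, adjusted p = 0.583). Of all genes, Gm6517 had the smallest p for a difference between the sexes, 4.61e-05, and its adjusted p of 0.707 did not pass.

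Efhd1, which encodes a calcium-binding protein of the inner mitochondrial membrane, depended on the mice numbered 2. Ctrl females had 2.59 to 3.56 CPM (median 2.72 CPM) and cKO females 3.43 to 7.66 CPM (median 4.57 CPM). The highest Ctrl value and the lowest cKO value were both from mice numbered 2, and the cKO mouse numbered 3, at 3.53 CPM, was the other one within the Ctrl range. The log2 fold change was 0.72 (SE 0.15, adjusted p = 0.138) with all mice and 0.84 (adjusted p = 0.0421) without them. The highest value, 7.66 CPM, was from the cKO mouse numbered 1, and the log2 fold change was 0.56 without that mouse alone.

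**Figure D1:**
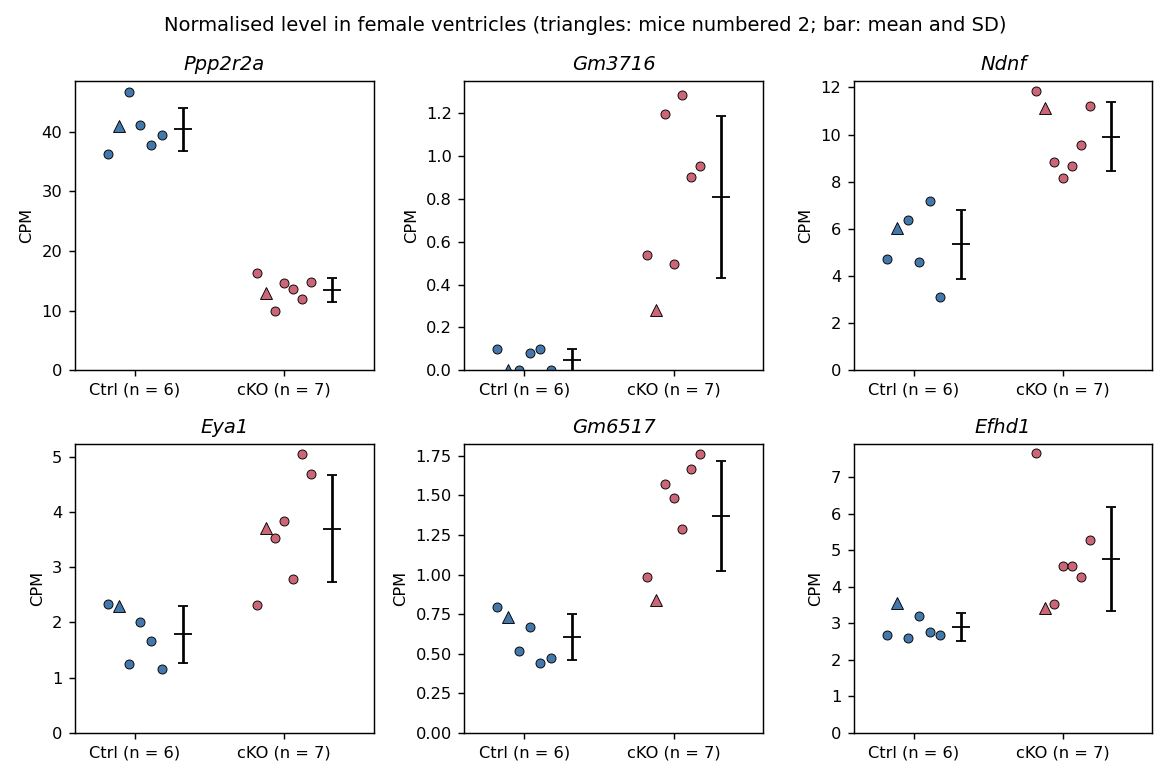
Normalised levels (CPM, linear axes from 0) in each Ctrl (n = 6) and cKO (n = 7) female for the 5 called genes and Efhd1, with triangles for the mice numbered 2 and bars for the mean and SD. Ppp2r2a lies between 36.2 and 46.6 CPM in Ctrl and between 9.95 and 16.2 CPM in cKO, while the other genes are higher in cKO, with overlap in Eya1 and Efhd1.

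Among the genes next in order of p, none passed the threshold, and their differences were mostly small. The muscle gene Hacd1, which encodes an enzyme of very-long-chain fatty acid synthesis, was at 38.9 to 46.7 CPM in Ctrl and 35.1 to 41.0 CPM in cKO females. Of the 7 cKO females, 5 were below the Ctrl range (log2 fold change -0.24, SE 0.05, adjusted p = 0.128). Bsg, which encodes basigin, the chaperone of the monocarboxylate transporters, was at 1516 to 1950 CPM in Ctrl and 1249 to 1523 CPM in cKO females, with 6 of 7 below the Ctrl range (-0.22, adjusted p = 0.378). Fitm1, a lipid droplet gene of muscle, was at 99.5 to 123 CPM against 77.1 to 104 CPM (-0.31, adjusted p = 0.461). Shisa3 was at 2.10 to 3.74 CPM against 0.927 to 1.91 CPM without overlap (-0.90, adjusted p = 0.461), and its male value was -0.65. The others of the 10 lowest were Lbhd1 (-0.78), Yif1b (-0.21), Nit2 (-0.21), Dcaf4 (-0.26) and the processed pseudogene Gm11839 (-0.96).

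On the higher side, the Groucho-family corepressor gene Tle2 was at 11.7 to 15.9 CPM in Ctrl and 15.9 to 18.7 CPM in cKO females, 6 of which were above the Ctrl range (log2 fold change 0.34, adjusted p = 0.138). Kmt2b, a histone H3 lysine methyltransferase, had 6 of 7 cKO females above the Ctrl range as well (0.20, adjusted p = 0.138). Camkk2, the calcium/calmodulin-dependent kinase kinase that acts on AMPK, was at 12.2 to 13.5 CPM in Ctrl and 14.5 to 16.9 CPM in cKO females without overlap (0.24, adjusted p = 0.193). Rab27a, a GTPase of vesicle secretion, was at 1.46 to 2.32 CPM against 2.41 to 4.41 CPM (0.69, adjusted p = 0.305). The phosphatase gene Ptpn14 had a value of 0.25 (adjusted p = 0.378). In all, 26 genes (0.169% of those tested) had groups that did not overlap, 18 higher in cKO (0.117%) and 8 lower (0.0521%). Over 1716 splits the smallest exact permutation p is 0.000583, which is the mean share of genes that random splits separate in each direction. The lower share was no larger than that, and the higher share was larger. Genes vary together across the same mice, so this share can differ widely between splits. Its spread was not computed, and whether either share differs from chance was not tested.

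**Figure D2:**
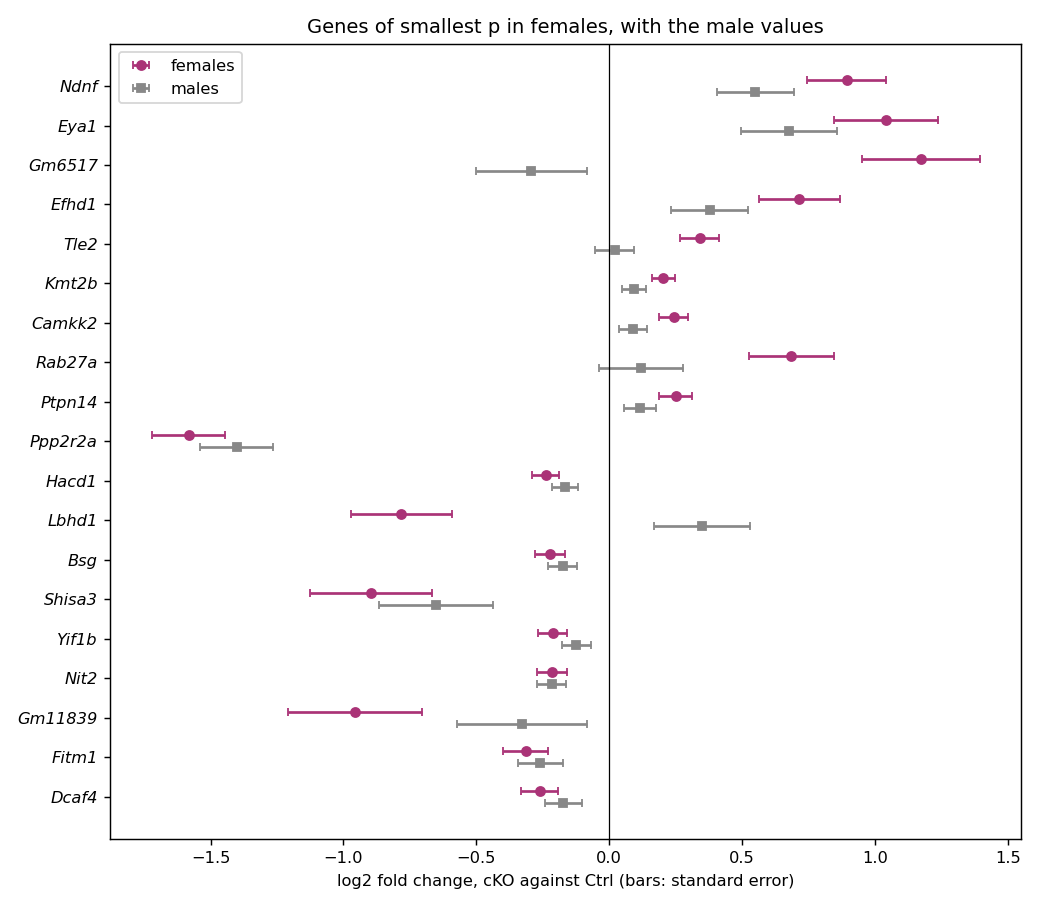
Log2 fold changes (cKO against Ctrl, bars are standard errors) of the genes with the smallest p on each side in females (10 higher, 10 lower), in females (circles) and males (squares), without Gm3716, whose Ctrl level is near 0. Ppp2r2a lies at -1.58 in females and -1.40 in males, whereas Gm6517 (1.17 and -0.29) and Lbhd1 (-0.78 and 0.35) have opposite signs in the sexes.

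No gene passed the test of the difference between the sexes (0 of 15357, smallest adjusted p = 0.707), with 608 genes (3.96%) at an unadjusted p under 0.05. In males, 68 genes (0.443%) were called. The larger count in males than in females is therefore not shown, gene by gene, to be a difference in response. Ppp2r2a itself had a log2 fold change of -1.40 in males, and the difference of -0.18 (SE 0.19) between the sexes had an adjusted p of 0.999. Lbhd1 lay between 1.40 and 2.42 CPM in Ctrl females and between 0.629 and 1.38 CPM in cKO females, and its difference between the sexes of -1.13 (SE 0.26) had an unadjusted p of 0.00018 (adjusted p = 0.999).

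Genes of energy metabolism had small negative values in cKO females, and the groups overlapped by mouse. In cKO females 36 of 37 nuclear genes of complex I and 43 of 44 genes of complexes II to V were negative, with medians of -0.07 each, where 48.9% of all genes tested were negative. None was called. Ndufa9, a complex I subunit, was at 478 to 517 CPM in Ctrl and 424 to 487 CPM in cKO females, with 6 of 7 below the Ctrl range (log2 fold change -0.12, adjusted p = 0.787). Atp5b, the β subunit of the ATP synthase, was at 5177 to 5632 CPM against 4828 to 5348 CPM (-0.11, adjusted p = 0.825). Cox7a1, a cytochrome c oxidase subunit, had a value of -0.19. The mean log2 level of complex I genes, relative to the Ctrl mean, was -0.06 to 0.05 in Ctrl and -0.18 to 0.05 in cKO females, so the cKO females reached from the top of the Ctrl range to below it. Without the mice numbered 2 the medians of both lists were -0.08.

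Fatty acid uptake and oxidation genes were negative in 28 of 32 cases (median -0.08) and genes of glycolysis, pyruvate and the TCA cycle in 32 of 34 (median -0.09). The former median was -0.05 without the Ctrl mouse numbered 5. Eci1, an enoyl-CoA isomerase of mitochondrial β-oxidation, was at 318 to 353 CPM in Ctrl and 286 to 308 CPM in cKO females without overlap, and its value of -0.17 (SE 0.05) had an adjusted p of 0.825. In males Eci1 was called (-0.35, adjusted p = 0.00314). Acadvl, the first enzyme of very-long-chain acyl-CoA oxidation, had a value of -0.13, and the TCA cycle genes Sucla2 and Fh1 had -0.13 and -0.12. In males the medians were -0.15 for complex I, -0.16 for complexes II to V and -0.16 for fatty acid oxidation.

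Markers of some cell types had values mostly of 1 sign beside these genes and others had both signs. Their part in the metabolic medians was not tested. All 10 cardiomyocyte markers were negative (median -0.09), from -0.04 for Mb to -0.14 for Ckm, the muscle creatine kinase. Of 10 fibroblast markers 9 were positive (median 0.11), and their summed level was 2273 to 2914 CPM in Ctrl and 2366 to 3203 CPM in cKO females. Endocardial markers were positive in 5 of 5 cases (median 0.20) and endothelial markers in 8 of 10 (median 0.06), while those of activated fibroblasts were negative in 4 of 7 (median -0.03). Smooth muscle and pericyte markers were positive in 5 of 10 cases (median 0.01) and macrophage markers in 6 of 10 (median 0.04). Erythroid and blood markers were negative in 5 of 6, and epicardial and mesothelial markers in 3 of 3. Markers of Schwann cells and neurons were positive in 5 of 6, of the conduction system in 6 of 8 and of adipocytes in 4 of 5. No marker was called, and the sums overlapped between the groups for each of these cell types.

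The 13 mitochondrially encoded genes, of which 12 were negative (median -0.08), rested on the cKO mice numbered 1 and 7. Their mean log2 level against the Ctrl mean was -0.91 and -0.50 in those mice, 0.02 to 0.20 in the other 5 cKO females, and -0.10 to 0.24 in Ctrl. The low values were uneven across genes. mt-Atp8, a subunit of the ATP synthase, was at 28.5 and 48.7 CPM in these mice and at 108 to 228 CPM in the other 11 females. mt-Co1, the most abundant of them, was at 58100.4 and 66489.9 CPM against 69099 to 81203 CPM. Without both mice the median was 0.06 and 9 of 13 were positive, while that of complex I was -0.08, so the small negative shift of the nuclear genes was as large without them.

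Contractile and excitation genes gave no call. Of 28 sarcomere and Z-disc genes 22 were negative (median -0.05), with the ventricular light chain Myl3 at 5249 to 6185 CPM in Ctrl and 4629 to 5581 CPM in cKO females (-0.13, adjusted p = 0.825) and the cardiac troponin I gene Tnni3 at -0.10. Of 29 calcium handling and ion channel genes 24 were negative (median -0.07), among them Jph2, which ties the sarcoplasmic reticulum to the T-tubule, and Hrc, a calcium-binding protein of that reticulum, at -0.14 each. This median was -0.05, with 21 of 29 negative, without the mice numbered 2, and -0.03 without the Ctrl mouse numbered 5, while the sarcomere median was -0.03 without the Ctrl mouse numbered 2.

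Genes of the fetal programme and of haemodynamic stress had a median of 0.03 in females (8 of 19 negative), which was -0.05 without the cKO mouse numbered 2 and 0.14 without the Ctrl mouse numbered 2. The log2 fold changes of the 19 genes ran from -0.74 to 0.76. Nppa, which encodes atrial natriuretic peptide and was near the upper end, was at 177 to 508 CPM in Ctrl and 323 to 854 CPM in cKO females (log2 fold change 0.75, SE 0.39, adjusted p = 0.948). Ankrd1, a stretch-responsive gene of the sarcomere, had 1066 to 1780 CPM against 1480 to 2412 CPM (0.41, adjusted p = 0.948). Fhl1, a LIM protein of the sarcomere, had the smallest p of the list, with 119 to 183 CPM against 98.9 to 134 CPM (-0.30, adjusted p = 0.461). The male median was 0.48, and 1 of the 19 genes had an unadjusted p under 0.05 for a difference between the sexes.

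Extracellular matrix genes were likewise without a call. The median was 0.02 over 25 collagens and 0.10 over 35 matrix and TGF-β genes, of which 26 were positive, as were 51.1% of all genes tested. The collagen median was -0.04 without the cKO mouse numbered 1 and 0.09 without the Ctrl mouse numbered 6, and the matrix median 0.05 without the Ctrl mouse numbered 5. Ccn5, a matricellular gene of the CCN family, had 1.38 to 2.39 CPM in Ctrl and 2.31 to 9.18 CPM in cKO females. Its log2 fold change of 1.09 (SE 0.31, adjusted p = 0.526) included the cKO mouse numbered 5 at 9.18 CPM, and it was 0.76 without that mouse. Col27a1 (0.34), Col12a1 (0.62) and the latent TGF-β binding gene Ltbp3 (0.13) had the next smallest p of these lists. Ltbp3 was called in males (0.28, adjusted p = 0.0272).

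**Figure D3:**
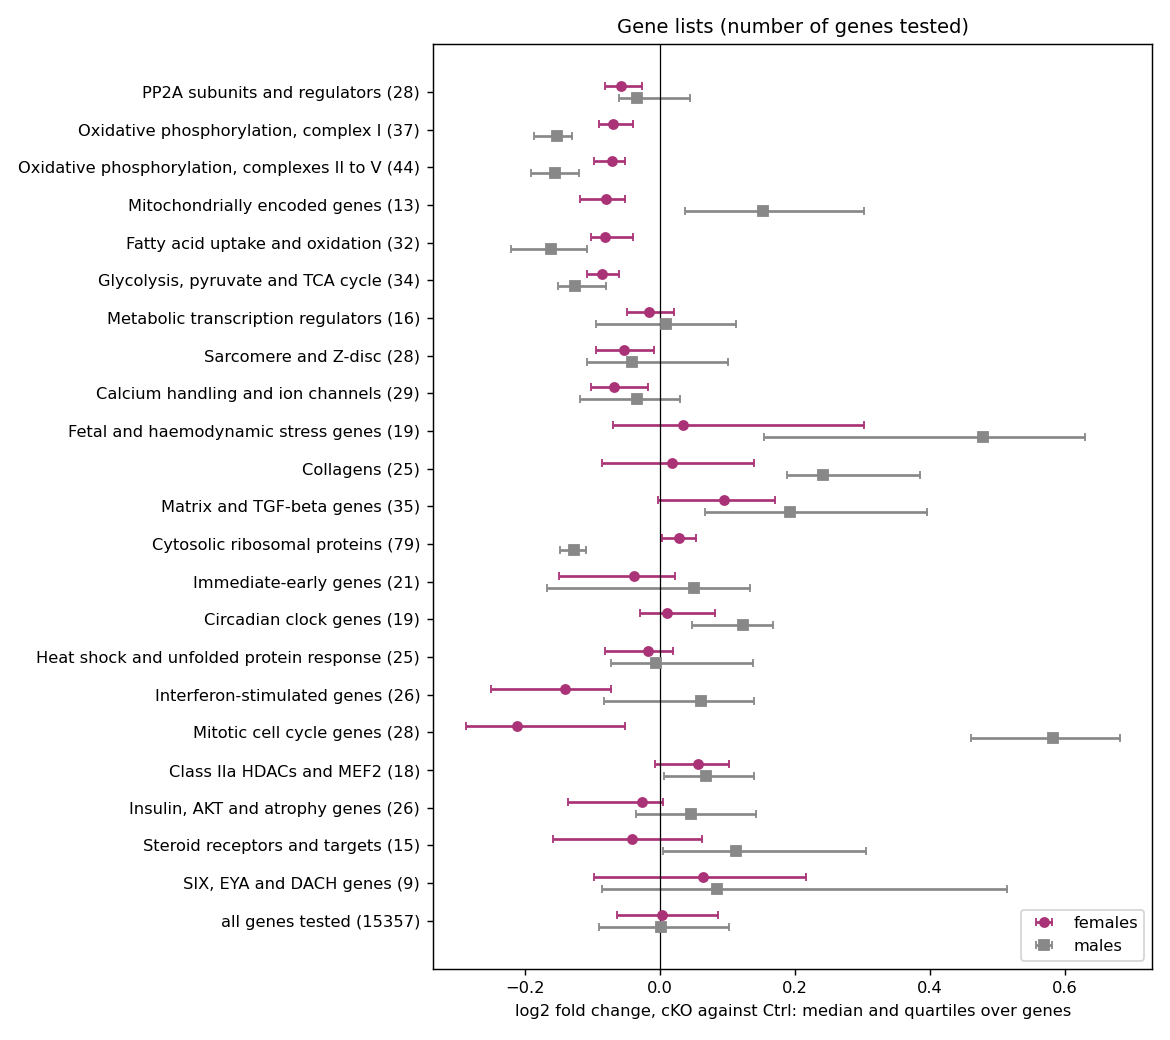
Median (symbol) and quartiles (bars) over genes of the log2 fold change, cKO against Ctrl, for each gene list in females (circles) and males (squares), with the number of genes tested in brackets. Female medians lie between -0.21 (mitotic genes) and 0.10 (matrix genes), and male medians between -0.16 and 0.58.

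The medians of the mitotic genes had opposite signs in the sexes, except where a mean of at least 5 CPM left 2 of the 28 genes (female median 0.07). In cKO females 21 of 28 were negative (median -0.21), and none had an unadjusted p under 0.05. In males all 28 were positive (median 0.58), where 50.3% of all genes were, and none was called. Of the 28 genes 14 had an unadjusted p under 0.05 for the difference between the sexes, where 3.96% of all genes did, and none passed when adjusted (smallest adjusted p = 0.999). Mki67, a marker of cycling cells, was at 4.42 to 9.45 CPM in Ctrl females. Among cKO females it was at 13.1 CPM in the mouse numbered 1, at 6.50 and 6.24 CPM in those numbered 2 and 7, and at 2.66 to 3.47 CPM in the other 4, all below the Ctrl range. The spindle genes Tpx2 and Kif11 had values of -0.49 and -0.45 (adjusted p = 0.975 each). Without the cKO mice numbered 1 and 7 the median was -0.59 and 27 of 28 were negative, still with no call. The median was -0.46 without the cKO mouse numbered 1 alone and -0.08 without the Ctrl mouse numbered 6. The mean log2 level of these genes was -0.75 to 0.73 in cKO and -0.44 to 0.46 in Ctrl females. The wider range in cKO rested on the mouse numbered 1 (0.73), since the rest of the cKO females were at -0.75 to 0.08.

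Interferon-stimulated genes were negative in 22 of 26 cases (median -0.14, or -0.21 without the mice numbered 2). The median was -0.25 without the cKO mouse numbered 1 and -0.08 without the Ctrl mouse numbered 4. The mean log2 level was -0.70 and -0.59 in the cKO mice numbered 4 and 6, -0.29 to 0.25 in the other 5, and -0.17 to 0.25 in Ctrl. Irf9, the DNA-binding subunit of the complex that type I interferon activates, was at 18.8 to 23.3 CPM in Ctrl and at 12.4 to 20.6 CPM in cKO females (-0.31, adjusted p = 0.941). Ifit1, an antiviral gene, had a value of -0.46 (adjusted p = 0.95). Macrophage markers were at a summed 232 to 332 CPM in Ctrl and 229 to 357 CPM in cKO females.

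**Figure D4:**
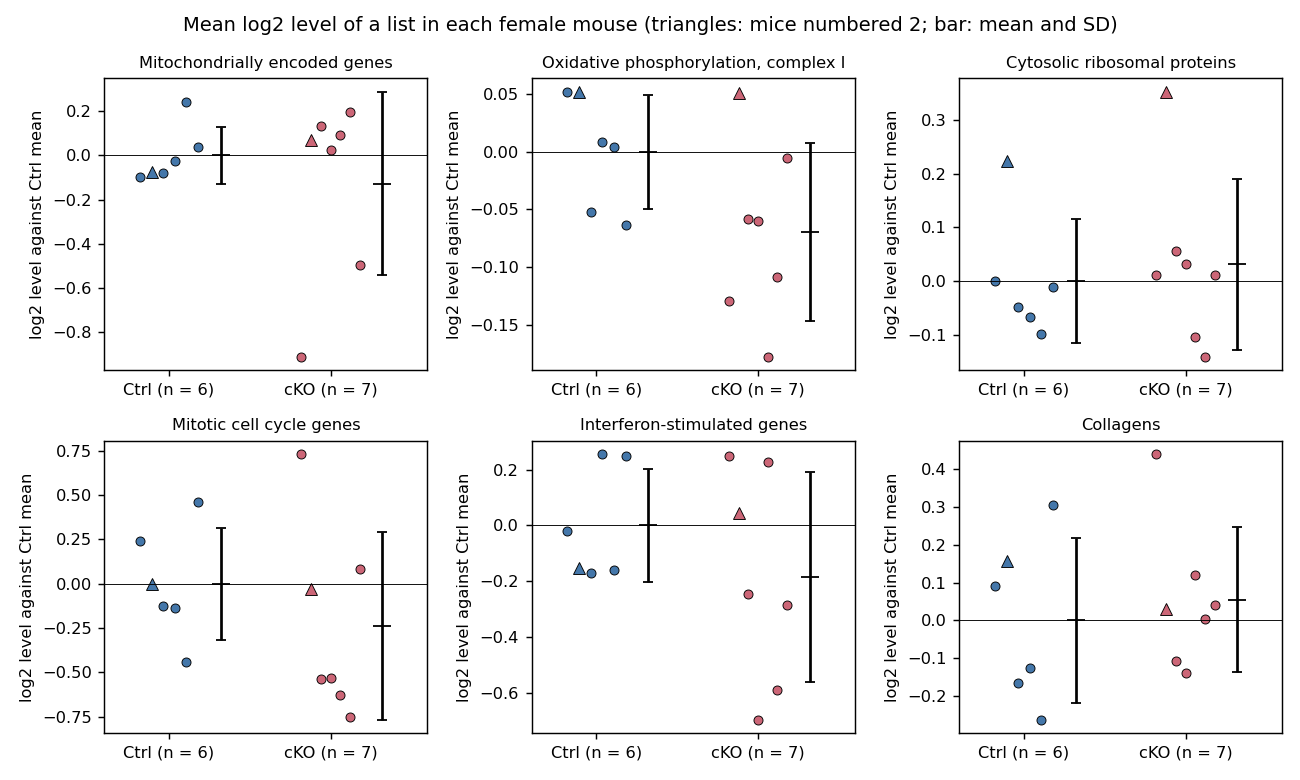
Mean log2 level of 6 gene lists in each female, relative to the Ctrl mean, with triangles for the mice numbered 2 and bars for the mean and SD of Ctrl (n = 6) and cKO (n = 7). The cKO mice numbered 1 and 7 are low in mitochondrially encoded genes (-0.91 and -0.50), and both mice numbered 2 are the highest in ribosomal protein genes (0.22 and 0.35).

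Several immediate-early genes, which many stimuli induce rapidly and without new protein synthesis, were high in both mice numbered 2. Of the 21 tested, 6 were higher in both mice numbered 2 than in all 11 others, as were 1103 of all 15357 genes tested. The 6 were Atf3, Nr4a1, Nr4a3, Klf4, Klf6 and Jund. The nuclear receptor gene Nr4a1 was at 224 CPM in the Ctrl and 80.1 CPM in the cKO mouse, against 8.50 to 37.5 CPM elsewhere. Nr4a3 was at 154 and 121 CPM against 8.28 to 49.1 CPM, and the stress-induced factor Atf3 at 71.2 and 42.0 CPM against 2.00 to 21.3 CPM. The genotype median of the list was -0.04 with these mice and 0.06 without them, and no gene was called in either case. Fosb was at 5.94 and 1.54 CPM in these mice (0.197 to 2.36 CPM elsewhere), with a log2 fold change of -0.998 with and -0.13 without them, and that of Fosl2 was -0.29 with and 0.02 without them. Fos and Egr1, the classical members, were within the range of the other females, at 3.17 and 4.13 CPM for Fos (1.28 to 4.22 CPM elsewhere, median 2.47 CPM) and 8.43 and 13.6 CPM for Egr1 (7.36 to 30.4 CPM elsewhere).

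**Figure D5:**
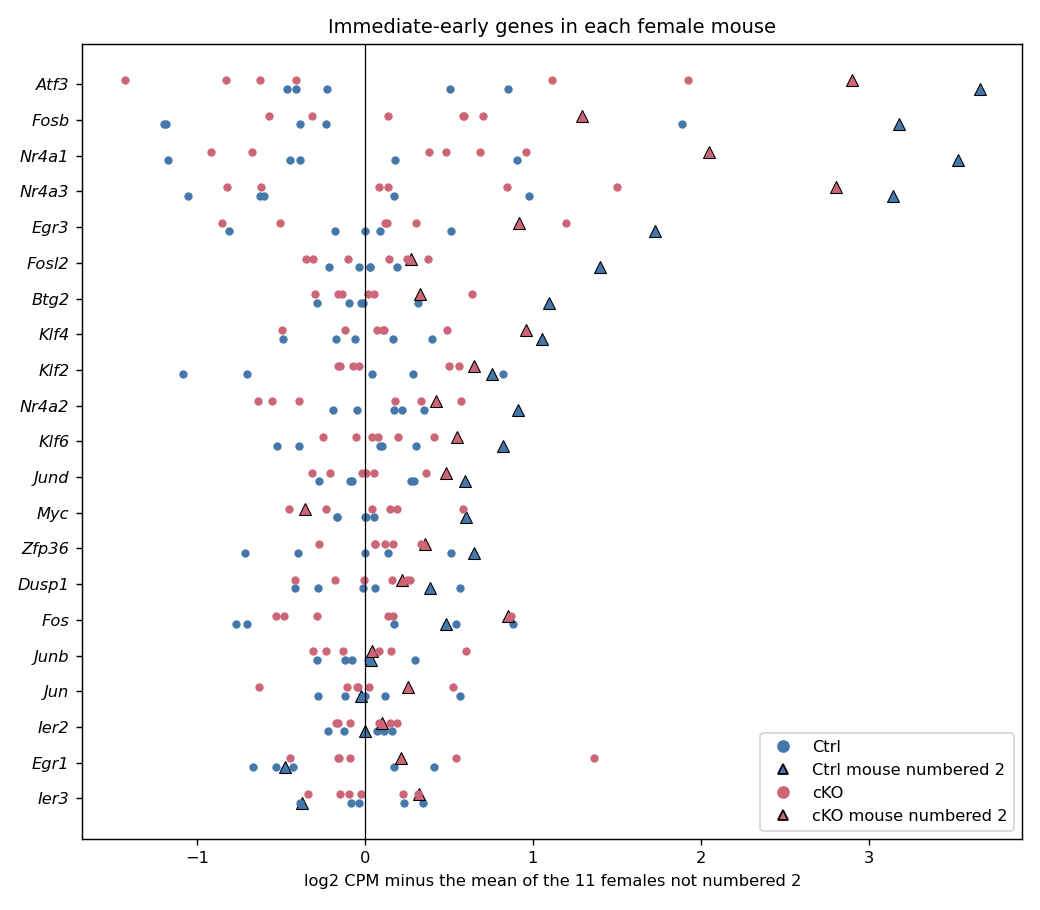
Log2 CPM of 21 immediate-early genes in each female, minus the mean of the 11 females not numbered 2, with triangles for the mice numbered 2 of each genotype. Both triangles lie right of all other points for Atf3, Nr4a1, Nr4a3, Klf4, Klf6 and Jund. Both lie within the other points for Klf2, Dusp1, Fos, Junb, Jun, Ier2, Egr1 and Ier3.

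The remaining regulatory lists gave no call. Cytosolic ribosomal protein genes had a median of 0.03, with 19 of 79 negative, and none reached an unadjusted p under 0.05. The median was -0.03 without the cKO mouse numbered 2 and 0.08 without the Ctrl mouse numbered 2. Of these, Rpl29 split into separate levels that did not follow genotype, at 119.8 and 101.9 CPM in the cKO females numbered 2 and 3 and 28.2 to 35.2 CPM in the other 11 females. In males Rpl29 was high in 1 Ctrl mouse (103.4 CPM) and 1 cKO mouse (96.0 CPM). Many processed copies of ribosomal protein genes exist, so the value of Rpl29 is uncertain.

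The list of class IIa histone deacetylases and MEF2 factors, of which HDAC5 was linked above to B55α, also holds NFAT, CAMTA and other regulatory genes. Its median over all 18 genes was 0.06 and is not a value for the deacetylases and MEF2 factors alone. Hdac7 had the smallest p, at 51.1 to 80.1 CPM in Ctrl and 66.6 to 90.8 CPM in cKO females (0.20, adjusted p = 0.922, and 0.11 without the mice numbered 2). The median was 0.01 without the Ctrl mouse numbered 6. Insulin, AKT and atrophy genes had a median of -0.03, with Foxo4, a forkhead factor inhibited by AKT, at 54.8 to 59.8 CPM in Ctrl and 47.5 to 56.4 CPM in cKO females (-0.14, adjusted p = 0.825) and Akt2 at -0.13. Circadian clock genes (median 0.01), heat shock and unfolded protein response genes (-0.02), metabolic transcription regulators (-0.02) and steroid receptors and their targets (-0.04) were close to the median of all genes. Within them the smallest p belonged to Npas2 (0.33) and Per2 (0.13) of the clock, the mitochondrial chaperone gene Hspd1 (-0.13), the respiratory regulator Nrf1 (0.20) and the cortisone reductase gene Hsd11b1 (-0.18).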

How the data were processed

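Per the submitters' processing notes, the tools were FastQC 0.74, cutadapt 4.6, STAR 2.7.11a and HTSeq on the build GRCm39. The values the authors deposited are raw whole-number counts for each gene from stranded poly-A libraries made per the labels' protocols from 500 ng of RNA with an integrity number of at least 7.7. The strand setting of the counting is not given in the sources used here, so overlapping and antisense genes are uncertain.

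The tests used edgeR 4.0.16 (R 4.3.3). Low genes were removed by filterByExpr (minimum count 10; 15357 of 56941 kept), libraries scaled by TMM, and 1 robust quasi-likelihood model with 4 group means was fitted to the 26 samples. Benjamini-Hochberg adjustment covered every gene tested, with calls at an adjusted p-value under 0.05. Standard errors were the fold change over the root of F, and CPM from TMM-scaled totals (prior count 2 on the log2 scale). Fold changes and lists are on the log2 scale. The labels do not state that samples are from separate animals, so p-values measure the spread between samples. Of 36 pairs of female libraries within groups, none agreed within sampling noise (chi-square per degree of freedom 7.19 to 29.2).

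The genes named are Ppp2r2a, all calls with and without the mice numbered 2, those with the smallest p on each side (10 higher, 10 lower), the 2 of smallest p in each list, and PP2A genes. Other immediate-early, mitochondrially encoded and marker genes, Nppa, Mki67, Rps2 and Rpl35a were named after their values were seen. The members and lists were chosen with earlier results of these data known. There were 22 gene lists and 15 marker lists. GENCODE M21 gave gene classes for 98.3% of genes tested, by gene ID, and the upstream window from RefSeq (GRCm38.p6, held for 2 of the 6 genes called).

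Alternatives were DESeq2 size factors, the DESeq2 1.42.0 Wald test, voom in limma 3.58.1, no robust estimation, other filters and thresholds, only the compared groups, a replicate block, and mice left out. Omission of the cKO mice numbered 1 and 7 was chosen after seeing the data.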

Additional observations from a re-analysis of the deposited data

Results flagged for a closer look

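Of 94 sets of values by group that were looked at, 5 had 1 female far from the others of its group, and chance alone flags about 1 in 20. The total count of the Ctrl mouse numbered 4 was 25.6 in units of 1e+06, with the nearest at 21.2. Cytosolic ribosomal protein genes were at a mean log2 level of 0.22 in the Ctrl mouse numbered 2 (nearest 0.00) and 0.35 in the cKO mouse numbered 2 (nearest 0.06). The Ctrl mouse numbered 2 also had the highest summed epicardial and mesothelial markers, 31.5 CPM with the nearest at 14.7 CPM. Of these markers Wt1 reached 25.4 CPM and 5 of 8 (Upk3b, Lrrn4, Krt8, Upk1b and Msln) were under 1 CPM in every female. Granulocyte and mast cell markers summed to 4.76 CPM in the cKO mouse numbered 6 (nearest 6.92 CPM), with Kit alone at 4.04 to 7.41 CPM in cKO females, and Ly6g was at 0 in every female.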

How the results depend on the processing

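The female count of 5 genes became 9 with the DESeq2 Wald test (Hacd1, Efhd1, Tle2 and Kmt2b added), 2 with a mean of at least 5 CPM, 3 at an adjusted p under 0.01, 1 when the males were left out of the model, where Gm3716 was not tested, and 2 without the cKO mice numbered 1 and 7. With 1 mouse left out at a time it was 3 to 7. It was 3 without the Ctrl mouse numbered 3, 5 or 6 and without the cKO mouse numbered 3, 4, 6 or 7. Ppp2r2a, Gm3716 and Ndnf kept their calls in all 13 of these fits, Eya1 lost its call in 8 and Gm6517 in 10. Voom gave 4 (Eya1 at an adjusted p of 0.126), no filter 4 (Gm6517 at 0.0836), and DESeq2 size factors, no robust estimation and an adjusted p under 0.1 gave 5 each.

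The replicate block gave 2 female calls (Ppp2r2a and Gm3716), with Ndnf at an adjusted p of 0.196 and Eya1 and Gm6517 at 0.822, and 34 in males. The numbers were not taken as pairs: same-numbered females correlated at -0.10 to 0.40, 3 of the 6 pairs over 0.1, with a mean of 0.118 against -0.019 for the other 36 pairs, and 2 of 6 Ctrl mice correlated best with their own number.

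The male count of 68 was 386 with the Wald test, 211 with voom, 31 without a filter, 164 with a mean of at least 5 CPM, 160 without the females numbered 2, 4 and 304 at adjusted p under 0.01 and 0.1, and 4 (without the Ctrl male numbered 5) to 79 with 1 mouse left out. The difference between the sexes gave 0 genes in all settings, and the Ppp2r2a difference was -1.64 to -1.52 with 1 mouse left out. Fosl2 turned to 0.022 without the mice numbered 2. With 1 mouse left out, Fosl2 ranged from -0.383 to 0.058 and Fosb from -1.23 to 0.073, both positive without the Ctrl mouse numbered 2. Of 1732 values of named genes under alternatives, 1690 kept direction and call. Most named genes were not called in the main fit, so this count says little about the calls. Of 506 list medians, 504 moved by less than 1 SD of the controls. That SD is larger than many of the medians, so a median could change sign within it. The collagen median did so, at -0.04 to 0.09 with 1 mouse left out. Depth limits genes under about 1 CPM, where 3 counts are 0.117 to 0.208 CPM.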
